A study of Mus musculus with 8 samples.

Results

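Type 2 immune signals were followed through 10 genes in sorted mouse lung epithelium: the alarmins Il33, Il25 and Tslp, the receptor and transducer genes Il4ra, Il13ra1 and Stat6, and the response genes Retnla, Ccl17, Alox15 and Arg1. They were chosen by symbol, and each symbol matched 1 of the 43432 gene identifiers in the count table. RNA was sequenced from EpCAM+CD45- lung cells, an epithelial gate that leaves out leukocytes carrying CD45, of C57BL/6J mice aged 14 weeks. The C/C group (n = 2) and the C/+ group (n = 3) were the ChiaRed+ cells of that gate from mice homozygous or heterozygous for ChiaRed, a reporter allele of Chia1, the gene of acidic mammalian chitinase. The WT group (n = 3) was the whole gate from mice without the allele, so both reporter groups differ from WT in the sort as well as in genotype, and these cannot be told apart. No challenge or treatment is given for any group. A sorted library is a bulk sample, in which fewer cells of a type and less RNA per cell cannot be told apart.

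Type 2 immunity is the arm of the immune response that meets worms and allergens. Damaged or stimulated epithelium releases the alarmins IL-33, IL-25 and TSLP, which act on group 2 innate lymphoid cells and other leukocytes. Those cells then make IL-4 and IL-13, which signal back to epithelium through a receptor built from IL-4Ralpha and IL-13Ralpha1, and the signal passes through the transcription factor STAT6 to genes such as Retnla, Ccl17, Alox15 and Arg1. In the mouse lung, alveolar type 2 cells are a known source of IL-33, and tuft cells of the airway are a known source of IL-25.

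The 8 libraries held 46478577 and 41950581 counts in C/C, 17057216 to 30190458 in C/+ and 20232091 to 52319957 in WT. Chia1 stood at 63 and 14 counts in C/C, against 3795 to 9298 in C/+ and 9571 to 22881 in WT. The summed level of 8 alveolar type 2 markers, most of it from Sftpc, was 240000 to 244000 CPM in C/C, 206000 to 214000 in C/+ and 176000 to 202000 in WT (CPM are counts scaled to a common library total, with TMM factors). The club and endothelial marker sums were highest in C/+: 5 club cell markers summed to 457 to 679 CPM in C/C, 5060 to 9470 in C/+ and 401 to 1040 in WT, and 6 endothelial markers to 32.5 to 38.3 CPM in C/C, 383 to 629 in C/+ and 45 to 189 in WT. A list of 12 immediate early and stress genes summed to 11900 to 15200 CPM in C/C, 3810 to 6530 in C/+ and 2950 to 8800 in WT. The labels give no sex; by Xist and Y-linked counts 5 libraries were female (both of C/C, C/+ 2, C/+ 3 and WT 1) and 3 male (C/+ 1, WT 2 and WT 3).

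The promoters of 3 members are shown because they hold a letter pattern bound by STAT6, TTCNNNNGAA, within the 250 bases before a RefSeq start. RefSeq promoters on GRCm38.p6 were given for 6 of the 10 genes. Each sequence is on the plus strand, 5′ to 3′, with matches in capitals, and the pattern reads the same on both strands. The windows are chr16:48842359-48842550 for Retnla, where the bases from the first annotated exon onward are left out, chr8:94810203-94810452 for Ccl17, and chr19:29924863-29925112 and chr19:29945540-29945789 for the first and second start of Il33.

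Retnla: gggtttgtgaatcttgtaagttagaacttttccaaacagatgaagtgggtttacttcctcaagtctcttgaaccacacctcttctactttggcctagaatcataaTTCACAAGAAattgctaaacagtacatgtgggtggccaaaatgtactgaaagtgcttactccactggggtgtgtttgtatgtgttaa
Ccl17: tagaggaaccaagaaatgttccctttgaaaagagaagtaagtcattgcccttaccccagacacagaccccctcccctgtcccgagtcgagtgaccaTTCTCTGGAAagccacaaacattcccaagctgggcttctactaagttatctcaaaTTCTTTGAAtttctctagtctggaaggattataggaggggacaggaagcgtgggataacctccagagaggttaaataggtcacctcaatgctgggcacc
Il33 first start: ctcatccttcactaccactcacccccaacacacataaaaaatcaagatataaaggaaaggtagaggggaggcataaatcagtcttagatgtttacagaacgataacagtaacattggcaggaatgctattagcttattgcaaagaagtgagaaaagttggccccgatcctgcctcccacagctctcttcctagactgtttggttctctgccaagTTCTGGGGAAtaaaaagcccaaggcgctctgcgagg
Il33 second start: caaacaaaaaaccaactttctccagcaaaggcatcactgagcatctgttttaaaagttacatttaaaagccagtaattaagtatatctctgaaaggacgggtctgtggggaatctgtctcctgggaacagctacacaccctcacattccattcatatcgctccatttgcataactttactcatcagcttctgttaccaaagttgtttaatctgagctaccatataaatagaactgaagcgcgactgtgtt

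The pattern began at -145 from the RefSeq start of Retnla, at -154 for Ccl17 and at -36 for the first start of Il33. A form with a spacer 1 base shorter, TTCNNNGAA, began at -99 for Ccl17, where it is also in capitals. TTCNNNNGAA was not found in the windows of the second start of Il33, of Il4ra, of Il13ra1 or of Stat6. It is found in 1923 of 32851 RefSeq promoters of the same length (5.85%), and the shorter form in 7.02%. Each match is a description of the letters, and whether it is a bound site was not tested. The 3 receptor and transducer promoters held 17 CpG in Il4ra, 21 in Il13ra1 and 6 in Stat6, against 4 in each Il33 window, 3 in Ccl17 and 1 in Retnla, with a median of 6 over all promoters.

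In the plot of length-scaled levels the 10 genes fell into a measurable group of 6 and a group of 4 at or near 0. On the RPKM scale (reads scaled to exon length and library total), Il33 averaged 177 ± 42.4 over the 8 libraries (SD), above 99.1% of tested genes, and Retnla 115 ± 83.3, above 98.4%. Stat6 stood at 33.8 ± 3.30 RPKM, Il4ra at 10.4 ± 1.78, Il13ra1 at 10.1 ± 0.917 and Arg1 at 4.87 ± 1.44. Tslp averaged 0.133 ± 0.126 RPKM, Ccl17 0.0431 ± 0.0909, Il25 0.0424 ± 0.0529 and Alox15 0.0397 ± 0.0471. Neighbours in this order did not separate beyond their spread for Il33 and Retnla, for Il4ra and Il13ra1, or among the 4 lowest genes, while Stat6 and Arg1 each stood clear of their neighbours in all 8 libraries. In C/+ 3 the order of the top pair turned, with Retnla at 313 RPKM and Il33 at 170 RPKM.

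**Figure D1:**
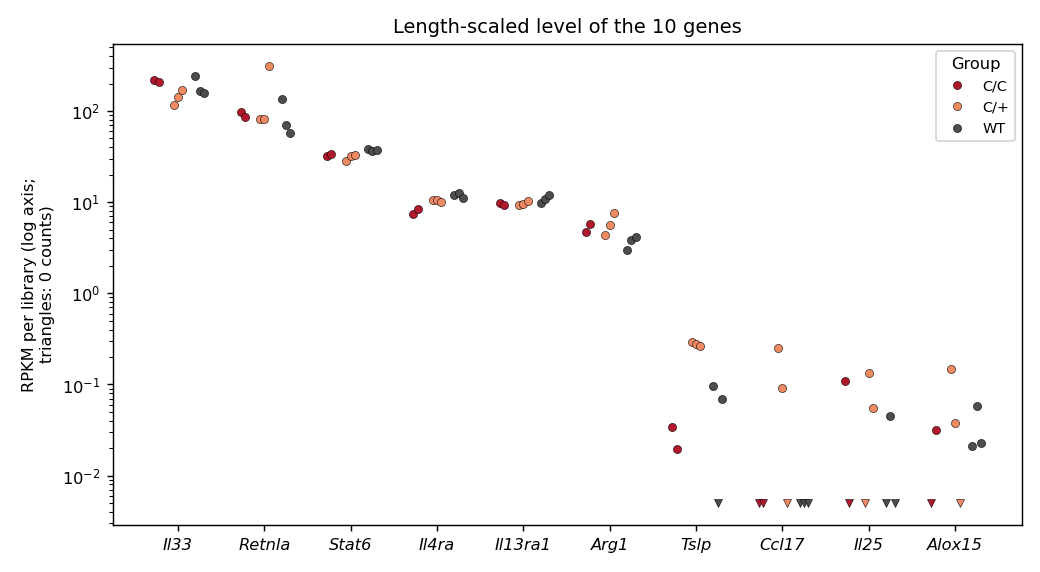
Length-scaled level (RPKM, log axis) of the 10 genes in each library, ordered by their mean over the 8 libraries, with C/C, C/+ and WT points from left to right and triangles for libraries with 0 counts. Il33 and Retnla lie highest, and Tslp, Ccl17, Il25 and Alox15 lie under 1 RPKM in every library.

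A filter on low counts left 14906 genes for testing, among them 7 of the 10: Il33, Tslp, Il4ra, Il13ra1, Stat6, Retnla and Arg1. Tslp passed only through the C/+ libraries, so its difference from C/+ is partly set by the filter. Il25, Ccl17 and Alox15 were too low to test. In edgeR's quasi-likelihood test with Benjamini-Hochberg adjustment over all tested genes, 1 of the 7 passed an adjusted p of 0.05 for C/C against WT, namely Il4ra, where 2.98% of all tested genes passed, and 1.36% as lower. For C/C against C/+, 0 of 7 passed, where 7.08% of all genes did. For C/+ against WT, 0 of 7 passed, where 3.92% did. Before adjustment, 1 of 7 had p under 0.05 for C/C against WT (22.1% of all tested genes), 3 of 7 for C/C against C/+ (20.9%) and 4 of 7 for C/+ against WT (20.1%). Tslp is 1 of the 3 and 1 of the 4, so these counts are partly set by the filter. The Wald test of DESeq2 called 1, 2 and 0 of the members in the same comparisons, where it called 1410, 1583 and 1227 genes in all. It was fitted to the 22726 genes with any count. Its own filter can leave some of these without an adjusted p, so these counts do not give a share of tested genes. The libraries of both groups did not overlap for 3 of 7 genes in C/C against WT, 3 in C/C against C/+ and 4 in C/+ against WT, where 43.3%, 38.3% and 24.8% of all tested genes did not. Tslp is again among those counted in C/C against C/+ and in C/+ against WT, with the same limit. The median log2 fold change of the tested members was -0.19, -0.16 and -0.16 in these 3 comparisons, and that of all tested genes -0.026, -0.008 and 0.005. The comparisons share groups, so they are not independent of each other.

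**Figure D2:**
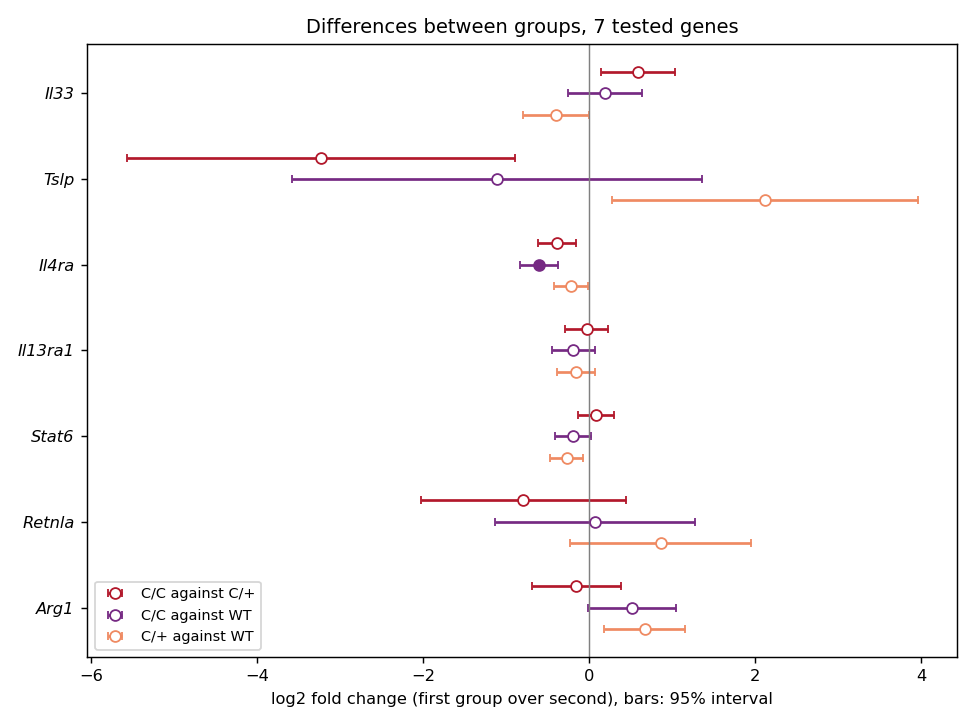
Log2 fold change of the 7 tested genes in each comparison, first-named group over second, from the edgeR fit over 8 libraries; bars are 95% intervals and the filled point has an adjusted p under 0.05. Il4ra in C/C against WT is the filled point, and the Tslp and Retnla intervals are the widest.

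Il33 (ENSMUSG00000024810, chr19:29925114-29960718, plus strand, GRCm38) encodes IL-33, an alarmin of the IL-1 family that is kept in the nucleus and released on cell damage. It was high in every library: 635 and 600 CPM in C/C, 331, 411 and 490 CPM in C/+, and 694, 480 and 449 CPM in WT. Both C/C libraries lay above all C/+ libraries, C/+ and WT overlapped, and WT 1 was the highest of all 8. The means were 618 ± 24.8 CPM in C/C (SD, n = 2), 410 ± 79.6 in C/+ and 541 ± 134 in WT (n = 3 each). The C/C to C/+ difference was a log2 fold change of 0.59 (SE 0.20, adjusted p = 0.119, edgeR), the C/+ to WT difference -0.40 (SE 0.181, adjusted p = 0.252) and the C/C to WT difference 0.19 (SE 0.201, adjusted p = 0.627), none past the threshold. The 95% interval for C/C against WT was -0.26 to 0.64.

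Within WT and within C/+, Il33 was higher in the libraries read as female than in those read as male. The female library WT 1 had 694 CPM, against 449 and 480 CPM in the male WT libraries, and the female C/+ libraries had 411 and 490 CPM, against 331 CPM in the male C/+ library. The same libraries differed in other ways: the immediate early sum was 2950 CPM in WT 1, against 5540 and 8800 CPM in WT 2 and WT 3, and 6530 CPM in C/+ 1, against 3910 and 3810 CPM in C/+ 2 and C/+ 3. The endothelial sum was 189 CPM in WT 1, against 86.3 and 45 CPM in WT 2 and WT 3. The sex term itself was not tested, nor was the part of these sums. With sex in the model, Il33 was lower in C/+ than in WT (log2 fold change -0.56, adjusted p = 0.00892, edgeR) and higher in C/C than in C/+ (0.43, adjusted p = 0.0347), while C/C against WT turned to -0.13 and did not pass. All C/C libraries were female, so C/C cannot be compared with WT males apart from sex, and the female libraries alone gave -0.63 for C/+ against WT with an adjusted p of 0.119, from 1 WT library. Without WT 1, Il33 passed for C/C against C/+ with an adjusted p of 0.0403. Most of the Il33 range in WT lay between WT 1 and the other 2 libraries.

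Tslp (ENSMUSG00000024379, chromosome 18, plus strand) encodes thymic stromal lymphopoietin, an epithelial cytokine that acts on dendritic cells and innate lymphoid cells. It had 2 and 1 counts in C/C, 12, 8 and 6 counts in C/+, and 5, 0 and 5 counts in WT. Every C/+ library had more reads than any C/C or WT library, though all 8 stood at 12 counts or fewer and under 0.4 CPM. Pooled over libraries the level was 0.0366 CPM in C/C (exact 95% binomial interval 0.00755 to 0.107), 0.376 CPM in C/+ (0.246 to 0.552) and 0.0881 CPM in WT (0.0422 to 0.162). These intervals cover counting error only, as do those of the other low genes. The ratio of pooled levels was 0.0973 for C/C against C/+ (exact interval 0.0189 to 0.318) and 4.27 for C/+ against WT (1.99 to 9.93). Across libraries, the edgeR adjusted p was 0.105 for C/C against C/+, 0.608 for C/C against WT and 0.188 for C/+ against WT. The C/+ libraries are also those with the highest club cell and endothelial marker sums given above. The 5 mesothelial markers summed to 83.6 to 84.2 CPM in C/C, 107 to 238 in C/+ and 48.4 to 76.7 in WT. Krt19 made up most of this sum in C/C and WT, at 77.8 and 78.8 CPM in C/C, and 41.9, 53 and 60.5 CPM in WT. The other markers of that list, Msln, Upk3b, Wt1 and Lrrn4, were each higher in every C/+ library than in any C/C or WT library. Msln had 3.05 and 1.75 CPM in C/C, 79.7, 25.8 and 22.8 in C/+, and 2.79, 12.6 and 3.59 in WT. The 6 mesenchymal markers summed to 9.66 to 9.8 CPM in C/C, 51.8 to 150 in C/+ and 9.39 to 29.3 in WT. Both of these sums were likewise highest in C/+, and the part of any of these cells in the Tslp reads was not tested. A long non-coding RNA that overlaps Tslp on the opposite strand had 0 counts in all 8 libraries.

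Il25 (ENSMUSG00000040770, chr14:54932695-54935837, plus strand) encodes IL-25, the tuft cell alarmin. It had 5 and 0 counts in C/C, 0, 3 and 1 in C/+, and 0, 1 and 0 in WT, so 4 of the 8 libraries had no read and the groups overlapped. The pooled level was 0.0610 CPM in C/C (exact interval 0.0198 to 0.142), 0.0579 CPM in C/+ (0.0158 to 0.148) and 0.00881 CPM in WT (0.000223 to 0.0491). No difference between the groups was detectable at this depth, with a ratio of 1.05 for C/C against C/+ (0.227 to 5.31) and 6.93 for C/C against WT (0.776 to 328). Of 7 tuft cell markers, Dclk1 and Avil passed the low-count filter. The list summed to 27.8 to 32.4 CPM in C/C, 20.5 to 28.7 in C/+ and 30.7 to 42.8 in WT. Dclk1 made up most of this: 31.3 and 26.5 CPM in C/C, 26.7, 20 and 24.7 in C/+, and 29.9, 39.1 and 42.3 in WT. Trpm5 had 0 and 5 counts in C/C, 10, 3 and 5 in C/+, and 9, 1 and 0 in WT, and Gnat3 had at most 1. Avil had 47 and 45 counts in C/C, 50, 8 and 20 in C/+, and 21, 9 and 20 in WT. Pou2f3, the factor that specifies tuft cells, had 0 and 0 counts in C/C, 1, 1 and 0 in C/+, and 0, 0 and 4 in WT, and Sh2d6 and Chat had none.

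**Figure D3:**
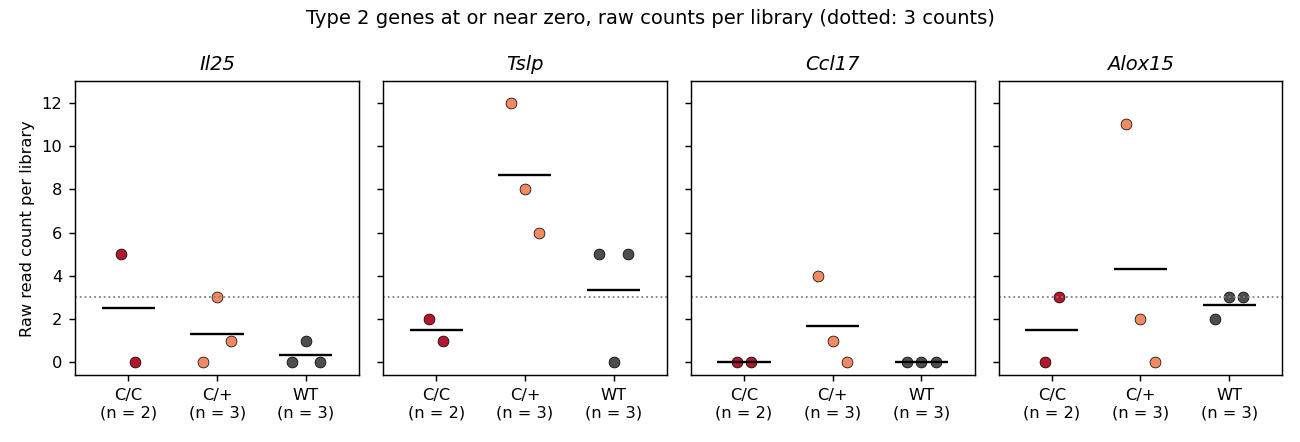
Raw read counts of Il25, Tslp, Ccl17 and Alox15 in each library (points) with the group mean (bar) for C/C, C/+ and WT; the dotted line marks 3 counts. No library holds more than 12 counts of any of these genes, and the Tslp counts of the 3 C/+ libraries, 6 to 12, are above those of the other libraries.

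Il4ra (ENSMUSG00000030748, chr7:125552120-125579474, plus strand) encodes the chain that both IL-4 receptor types share, and it was the member with a called difference. It had 44.7 and 50.4 CPM in C/C, 63.0, 62.9 and 59.9 CPM in C/+, and 72.9, 76.5 and 67.4 CPM in WT. The 3 groups did not overlap, with C/C lowest and WT highest. The means were 47.5 ± 4.02 CPM in C/C (SD, n = 2), 62.0 ± 1.76 in C/+ and 72.2 ± 4.55 in WT (n = 3 each). Il4ra fell in C/C relative to WT by 0.60 on the log2 scale (SE 0.103, 95% interval -0.83 to -0.38, edgeR adjusted p = 0.0203), a change of -34.2% and the 102nd smallest p of all tested genes. C/C against C/+ gave -0.38 (SE 0.103, adjusted p = 0.0517) and C/+ against WT -0.22 (SE 0.0913, adjusted p = 0.210), neither past the threshold.

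The Il4ra call for C/C against WT was kept in 12 of 16 alternative analyses, over which the log2 fold change ranged between -0.69 and -0.52. It was lost without WT 2 (-0.56, adjusted p = 0.0861), without C/C 1 (-0.52, adjusted p = 0.239) and without C/C 2 (-0.69, adjusted p = 0.125, edgeR), the last pair of fits resting on 1 C/C library that is assumed to vary like the other groups. It was also lost in the female libraries alone (-0.60, adjusted p = 0.0582), which hold 1 WT library. C/C against C/+ passed without WT 1 (adjusted p = 0.0396), with a filter of 1 CPM in 2 libraries (0.0419) and in DESeq2 (0.0303). The alveolar type 2 marker sum and the immediate early sum given above were higher in both C/C libraries than in any WT library. Most of the type 2 sum was Sftpc, at 167000 and 164000 CPM in C/C, and 104000, 128000 and 131000 CPM in WT. By the same comparison Sftpb, Sftpa1 and Napsa were also higher in C/C, Abca3, Slc34a2 and Etv5 were lower, and Lamp3 overlapped. The part of either sum in the Il4ra difference was not tested. An antisense gene on the opposite strand, Gm44876, was not analysed here.

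Il13ra1 (ENSMUSG00000017057, chrX:36112110-36171259, plus strand) encodes the chain that binds IL-13 and pairs with IL-4Ralpha. It had 36.0 and 34.6 CPM in C/C, 34.9, 35.0 and 38.3 CPM in C/+, and 36.0, 40.6 and 44.3 CPM in WT. The 3 groups overlapped, with means of 35.3 ± 0.997 in C/C (SD, n = 2), 36.1 ± 1.94 in C/+ and 40.3 ± 4.12 in WT (n = 3 each). The 95% intervals of the log2 fold change were -0.45 to 0.07 for C/C against WT, -0.29 to 0.23 for C/C against C/+ and -0.39 to 0.07 for C/+ against WT, with edgeR adjusted p of 0.368, 0.925 and 0.431. The ratio of Il4ra to Il13ra1 in RPKM was 0.766 and 0.899 in C/C, 1.12, 1.11 and 0.967 in C/+, and 1.25, 1.17 and 0.942 in WT. It was below 1 in both C/C libraries and lower there than in each of the other 6.

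Stat6 (ENSMUSG00000002147, chr10:127642986-127660957, plus strand), which encodes the transcription factor that carries the IL-4 and IL-13 signal to the nucleus, had 140 and 148 CPM in C/C, 125, 140 and 144 CPM in C/+, and 168, 162 and 163 CPM in WT. All 3 WT libraries lay above the 5 ChiaRed+ libraries, while C/C and C/+ overlapped. The log2 fold change was -0.19 for C/C against WT (SE 0.0986, edgeR adjusted p = 0.282), 0.08 for C/C against C/+ (SE 0.0981, adjusted p = 0.724) and -0.27 for C/+ against WT (SE 0.0880, adjusted p = 0.121). With sex in the model C/+ against WT passed (-0.31, adjusted p = 0.0380). Stat6 overlaps Nab2 on the opposite strand, which stood at 26.6 to 41.5 CPM. The library kit keeps strand, but the strand setting of the counting is not given in the sources used here, so reads of the overlap may be shared.

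**Figure D4:**
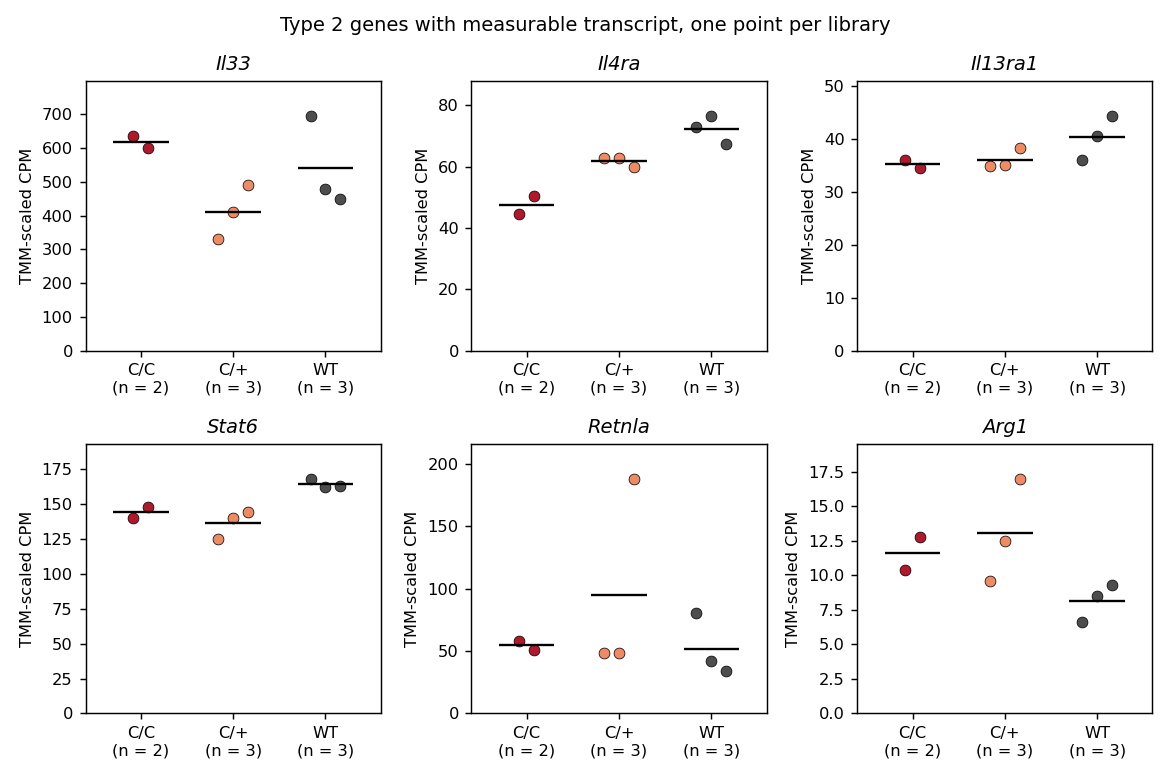
Level (TMM-scaled CPM) of the 6 measurable genes in each library (points) with the group mean (bar) for C/C (n = 2), C/+ (n = 3) and WT (n = 3). Il4ra forms 3 groups that do not overlap, the WT points of Stat6 lie above the others, and 1 C/+ library of Retnla, at 188 CPM, stands apart.

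Retnla (ENSMUSG00000061100, chr16:48842551-48844461, plus strand) encodes RELMalpha, a small secreted protein that rises in type 2 inflammation of the mouse lung. It had 58.4 and 51.0 CPM in C/C, 48.7, 48.8 and 188 CPM in C/+, and 80.2, 41.8 and 34.0 CPM in WT. C/+ 3 stood at more than the sum of the other C/+ libraries, and the 3 groups overlapped. The log2 fold change was 0.07 for C/C against WT (95% interval -1.14 to 1.28, edgeR adjusted p = 0.958), -0.79 for C/C against C/+ (-2.03 to 0.44, adjusted p = 0.479) and 0.86 for C/+ against WT (-0.23 to 1.95, adjusted p = 0.364). Without C/+ 3 the C/C to C/+ value turned to 0.17 and the C/+ to WT value to -0.10. The depth does not limit these values, since no library had fewer than 882 Retnla counts.

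Arg1 (ENSMUSG00000019987, chr10:24915221-24927484, minus strand) encodes arginase 1, which splits arginine into ornithine and urea and marks alternatively activated mouse macrophages. It had 10.4 and 12.8 CPM in C/C, 9.63, 12.5 and 17 CPM in C/+, and 6.62, 8.54 and 9.30 CPM in WT. All 5 ChiaRed+ libraries lay above the WT libraries, while C/C and C/+ overlapped. Neither difference from WT passed: the log2 fold change was 0.51 for C/C against WT (SE 0.239, edgeR adjusted p = 0.237) and 0.67 for C/+ against WT (SE 0.219, adjusted p = 0.122), with -0.16 for C/C against C/+ (SE 0.242, adjusted p = 0.785). Of 7 alveolar macrophage markers, Marco and Siglecf had at most 1 and 0 counts in C/C, at most 7 and 5 in C/+, and at most 10 and 9 in WT. The summed level of that list was 12.0 to 13.6 CPM in C/C, 10.5 to 11.1 in C/+ and 7.55 to 20.9 in WT, and its part in the Arg1 values was not tested. Cd68 made up most of that sum in C/C and C/+, at 11 and 12.6 CPM in C/C, 6.85, 10 and 10.8 CPM in C/+, and 10.1, 5.84 and 6.68 CPM in WT.

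Ccl17 (ENSMUSG00000031780, chr8:94810453-94812036, plus strand), a chemokine that draws CCR4-bearing T cells, had 0 and 0 counts in C/C, 4, 1 and 0 in C/+, and 0, 0 and 0 in WT. A count of 0 allows up to 0.0366 CPM in C/C and 0.0264 CPM in WT (3 counts over the pooled libraries), and the C/+ level was 0.0724 CPM (exact interval 0.0235 to 0.169). Retnla and Ccl17, which both hold TTCNNNNGAA in the printed windows, thus stood far apart in the length-scaled order. Alox15 (ENSMUSG00000018924, chr11:70344152-70352031, minus strand), a lipoxygenase whose human counterpart is induced by IL-4 and IL-13 in airway epithelium, had 0 and 3 counts in C/C, 11, 2 and 0 in C/+, and 2, 3 and 3 in WT. Of the 13 Alox15 counts in C/+, 11 came from C/+ 1, which also held 4 of the 5 Ccl17 counts of the series. C/+ 1 had 55 counts of Ptprc (1.80 CPM), while WT 1, with 58 (1.5 CPM), had 0 Ccl17 and 2 Alox15 counts. The dendritic cell marker Flt3 had 8 counts in C/+ 1, 1 in WT 1 and 0 in the rest. The 5 dendritic cell markers summed to 12 CPM in C/+ 1, the highest of the 8 libraries, and 11.1 CPM of it was Zbtb46. Cd209a and Xcr1, of the same list, had 0 counts in C/+ 1. This library also held 12 of the 13 Ccl22 and 17 of the 20 Chil4 counts of the series. Ptprc encodes CD45, which the sort left out. The part of leukocytes in the Ccl17 and Alox15 counts was not tested.

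The rest of the pathway was followed through 85 genes in 10 lists, 54 of them tested. Of these 54, 2 rose and 3 fell in C/C against WT (9.26%), 2 rose and 5 fell in C/C against C/+ (13%), and 1 rose and 1 fell in C/+ against WT (3.7%), where 2.98%, 7.08% and 3.92% of all tested genes passed. Clca1, 1 of the 5 that fell, passed the low-count filter only through the C/+ libraries, so that count is partly set by the filter. The median log2 fold change of the 54 genes was -0.07, -0.03 and -0.02. Leaving out each library in turn moved these counts to 0 to 5, 2 to 8 and 0 to 4. They were 10, 10 and 7 without the low-count filter, 8, 8 and 8 with sex as a covariate, and 6, 8 and 5 with DESeq2. In the compared groups alone they were 4, 7 and 0, and in the female libraries 8, 6 and 2. Leaving out C/C 1 or C/C 2 gave 0, 2 and 0 either way, and leaving out WT 2 gave 0, 6 and 0. Without WT 3 or without C/+ 1 they were 5 and 5 in C/C against WT, 6 and 5 in C/C against C/+, and 0 and 0 in C/+ against WT, without C/+ 2 they were 2, 4 and 0, and without C/+ 3 they were 5, 7 and 4.

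**Figure D5:**
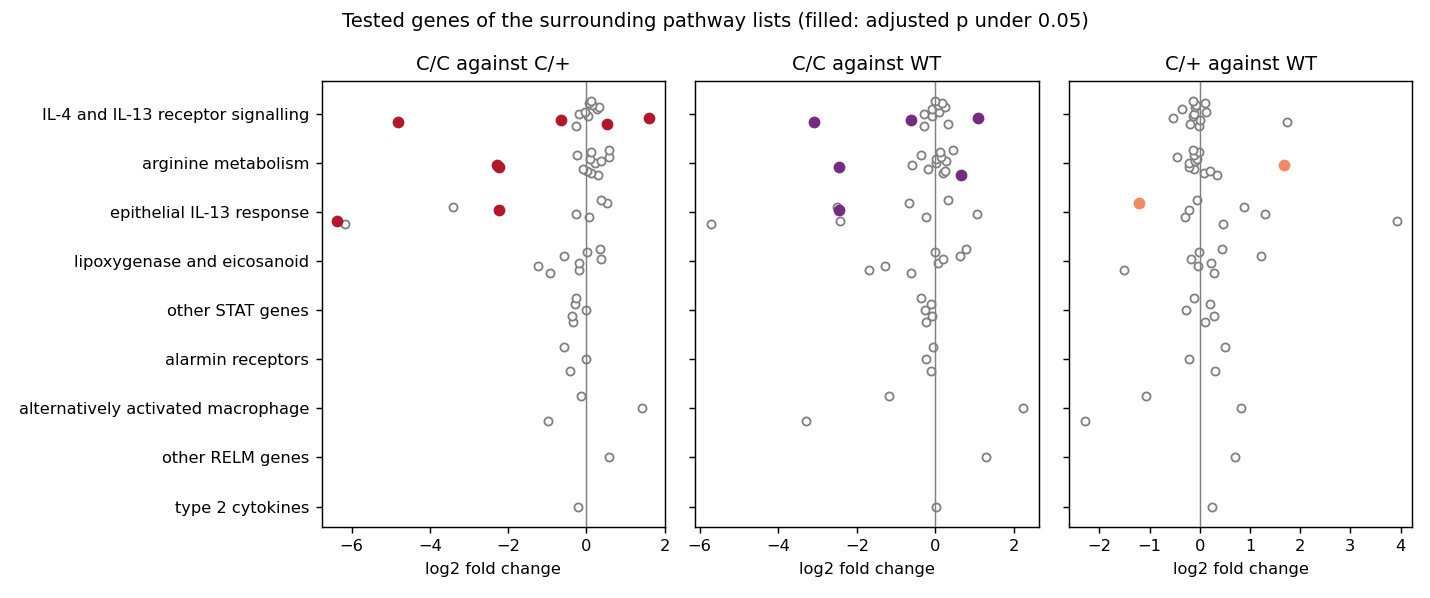
Log2 fold change of each tested gene of the pathway lists, 1 point per gene, with a panel for C/C over C/+, another for C/C over WT and another for C/+ over WT, each with its own axis; filled points have an adjusted p under 0.05. Calls lie in the receptor signalling, arginine and epithelial IL-13 response rows, and the other rows hold open points.

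In the receptor signalling list (13 of 14 tested), 2 genes rose and 2 fell in C/C against C/+, 1 rose and 2 fell in C/C against WT, and 0 passed in C/+ against WT, where 3 had an unadjusted p under 0.05 and DESeq2 called 3 (Ptpn1, Il2rg and Irs2). Irs2, an adaptor that links the IL-4 and insulin receptors to PI3 kinase, had 79.9 and 97.8 CPM in C/C, 23.9, 27.5 and 36.1 CPM in C/+, and 42.9, 38.4 and 45.5 CPM in WT. Both C/C libraries were above all others, with a log2 fold change of 1.61 against C/+ (SE 0.166, adjusted p = 0.000775, edgeR) and 1.07 against WT (SE 0.164, adjusted p = 0.0146). Its partner adaptor Irs1 went the other way, with 31.2 and 32.4 CPM in C/C, 50.6, 45.6 and 51.7 CPM in C/+, and 46.6, 51.2 and 49.1 CPM in WT. Both C/C libraries of Irs1 were below all others. Irs1 fell by 0.63 on the log2 scale against C/+ (adjusted p = 0.00558, edgeR) and by 0.62 against WT (adjusted p = 0.0194). Both adaptors also serve the insulin receptor, so their place in the list is not particular to IL-4. Cish, a feedback inhibitor of cytokine receptors, rose in C/C against C/+ (0.52, adjusted p = 0.0462, edgeR), with 51.4 and 47.3 CPM in C/C, against 40.9, 32.7 and 29.5 CPM in C/+.

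Il2rg, the common gamma chain that pairs with IL-4Ralpha on leukocytes, had 3 and 8 counts in C/C, 122, 103 and 52 in C/+, and 66, 29 and 29 in WT. Its log2 fold change was -4.82 in C/C against C/+ (SE 0.666, adjusted p = 0.00254, edgeR) and -3.09 against WT (SE 0.651, adjusted p = 0.0392). The 6 leukocyte markers summed to 0.711 to 0.886 CPM in C/C, 0.529 to 4.57 in C/+ and 0.911 to 4.41 in WT, and their part in the Il2rg values was not tested. The C/C to C/+ calls of Irs2 and Il2rg were kept in all 16 alternatives. Against C/+, the Irs1 call was lost without C/C 1 or without C/C 2. The Cish call was lost in 9 of the 16 alternatives, with leaving out C/C 1, C/C 2, C/+ 2, C/+ 3, WT 2 or WT 3 among them. Against WT, the Irs2 and Irs1 calls were lost without C/C 1, C/C 2 or WT 2, and that of Il2rg without any of these, C/+ 2 or WT 1. The Il2rg call against WT was also lost in the compared groups alone, and that of Irs1 in the female libraries, which hold 1 WT library. The kinases Jak1, Jak2, Jak3 and Tyk2, the inhibitors Socs1, Socs3, Ptpn1 and Ptpn6, and Bcl6 did not pass the edgeR test in any comparison.

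The ligands of this receptor were near 0: Il4 had 2 counts over all 8 libraries and Il13 had 1. Of the other type 2 cytokines, which act through receptors of their own, Il5 had 11 counts and Il9 had 0. Csf2, which encodes the growth factor GM-CSF, stood at 17.9 ± 1.87 CPM in C/C (SD, n = 2), 20.8 ± 1.18 in C/+ and 17.6 ± 0.904 in WT (n = 3 each), and did not pass in any comparison. Markers of group 2 innate lymphoid cells, which make these cytokines, summed to 0.0918 to 0.104 CPM in C/C, 0.941 to 2.19 in C/+ and 0.149 to 0.905 in WT, and those of mast cells and basophils to 0 in all. The lymphoid cell sum in C/+ was nearly all Gata3, at 1.31, 2.19 and 0.941 CPM, while Il1rl1, Klrg1 and Il2ra had 0 counts in the 3 C/+ libraries. Among the 6 receptor genes for the alarmins 3 were tested and 0 passed in edgeR, with 0 at an unadjusted p under 0.05 in C/C against WT, 1 in C/C against C/+ and 1 in C/+ against WT. Il1rl1 (the IL-33 receptor) had 8 counts over the 8 libraries, Il17rb (IL-25) had 9 and Il7r, a chain of the TSLP receptor, had 14. Crlf2, its other chain, which is specific to TSLP, averaged 1.76 ± 0.572 CPM in C/C (SD, n = 2), 2.37 ± 0.442 in C/+ and 1.94 ± 0.580 in WT (n = 3 each), and did not pass in any comparison. Il17ra averaged 25.6 ± 2.13 CPM in C/C, 26.0 ± 2.47 in C/+ and 30.3 ± 1.21 in WT, and Il1rap 5.49 ± 1.53, 8.14 ± 0.674 and 5.74 ± 0.210 CPM in the same groups, neither past the threshold. The other STAT genes had 0 calls among 5 tested in each comparison, with 2 at an unadjusted p under 0.05 in each. DESeq2 called 0 of the cytokine, alarmin receptor, STAT, chemokine, lipoxygenase and other RELM lists in each comparison. Stat3 was the highest of these in CPM, at 257 ± 4.24 in C/C, 258 ± 23.6 in C/+ and 312 ± 13.8 in WT.

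Of 14 genes of the epithelial response to IL-13, 8 were tested. Slc26a4, the anion exchanger pendrin, had 37.4 and 28.5 CPM in C/C, 17.4, 19.4 and 31.8 CPM in C/+, and 77.9, 39.9 and 40.6 CPM in WT. Every C/+ library was below every WT library, and the fall of 1.22 on the log2 scale passed (SE 0.291, adjusted p = 0.0464, edgeR). This call was lost without any 1 of the 8 libraries except C/+ 3, and in the compared groups alone. Clca1, a mucus protein of goblet cells, had 3 and 0 counts in C/C, 194, 50 and 18 in C/+, and 21, 2 and 0 in WT, and passed in C/C against C/+ (adjusted p = 0.0321, edgeR). Clca1, like Tslp, passed the low-count filter only through the C/+ libraries, so this difference is partly set by the filter. That call was lost without C/C 1, C/C 2, C/+ 1 or C/+ 2, and the club cell marker sum was highest in the same C/+ libraries. Muc5ac, the goblet cell mucin, had 39 counts in all, 25 of them in C/+ 1, and was too low for the edgeR test, while DESeq2 called it in C/C against C/+. Retnlb, Ccl24 and Pdcd1lg2 had 0 counts.

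In the arginine list, 13 of 14 genes were tested. Nos2, the inducible nitric oxide synthase, which is also in the epithelial list, had 0.344 and 0.626 CPM in C/C, 2.91, 2.05 and 1.88 CPM in C/+, and 1.58, 4.03 and 2.49 CPM in WT. It fell in C/C, with a log2 fold change of -2.24 against C/+ (SE 0.50, adjusted p = 0.0226, edgeR) and -2.46 against WT (SE 0.50, adjusted p = 0.0368). Nos3, the endothelial synthase, had 1.10 and 1.25 CPM in C/C, 6.33, 6.30 and 4.47 CPM in C/+, and 2.84, 1.76 and 0.781 CPM in WT, and moved with the endothelial marker sum. It fell by 2.28 in C/C against C/+ (adjusted p = 0.0175, edgeR) and rose by 1.68 in C/+ against WT (adjusted p = 0.0483). Arg2, the mitochondrial arginase, had 46.1 and 48.2 CPM in C/C, 37.9, 40.4 and 35.9 CPM in C/+, and 25.5, 30.7 and 33.3 CPM in WT. The 3 groups did not overlap, and C/C was above WT by 0.66 on the log2 scale (SE 0.125, adjusted p = 0.0324, edgeR).

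Each of these arginine calls was lost on leaving out either C/C library. The Arg2 call was also lost without WT 2 or C/+ 2, that of Nos2 against WT without WT 2, WT 3 or C/+ 2, and that of Nos2 against C/+ without C/+ 1. That of Nos3 was lost against C/+ without C/+ 2, and against WT without WT 2, WT 3, C/+ 1 or C/+ 2. Both Nos2 calls and the Nos3 call against WT were also lost in the female libraries, which hold 1 WT library. In the compared groups alone, the Nos3 call against WT was lost as well.

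The 6 genes of the chemokine list had 0 tested members. Ccl1, Ccl8, Ccl24 and the receptor Ccr4 had 0 counts, and Ccl11 had 1. Ccl22 had 13 counts, of which 12 were in C/+ 1. In the macrophage list 3 of 9 genes were tested and 0 passed in edgeR, with 2 at an unadjusted p under 0.05 in C/C against WT, 0 in C/C against C/+ and 1 in C/+ against WT, and DESeq2 called Egr2 in C/C against WT. Chil3, the chitinase-like protein of alveolar macrophages, had 0.643 and 0.339 CPM in C/C, 2.25, 0.327 and 0.176 CPM in C/+, and 8.51, 5.74 and 0.353 CPM in WT. Egr2, a zinc finger transcription factor of that list, averaged 1.83 ± 0.491 CPM in C/C, 0.675 ± 0.245 in C/+ and 0.358 ± 0.384 in WT. The immediate early sum given above was also highest in both C/C libraries, and its part in the Egr2 values was not tested. Of 13 lipoxygenase and eicosanoid genes 8 were tested and 0 passed, with 1 at an unadjusted p under 0.05 in C/C against WT, 2 in C/C against C/+ and 1 in C/+ against WT. The cyclooxygenase Ptgs1 stood at 261 ± 16.4 CPM in C/C, 259 ± 21.9 in C/+ and 262 ± 12.0 in WT, and Ptgs2 at 101 ± 2.45, 79.7 ± 34.2 and 59.0 ± 20.8 CPM in the same groups. Of the 3 other RELM genes only Retnlg was tested, and it stood under 1 CPM in each group mean, at 0.962 ± 0.225 in C/C, 0.635 ± 0.290 in C/+ and 0.388 ± 0.314 in WT.

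The members did not share 1 pattern over the 8 libraries. Pearson's r of log2 CPM between pairs of tested members lay between -0.56 and 0.60, lowest for Stat6 with Tslp and highest for Il13ra1 with Stat6; the libraries share groups, sex and cell makeup, so these are descriptions. The genes whose log2 CPM was most like each member, among 11693 genes compared, were Slc38a4 (r = 0.989) and Slc25a51 (0.985) for Il33, Epn2 (0.959) for Il4ra, Pde7b (0.947) and Rassf3 (0.942) for Il13ra1, and Srebf2 (0.987) and Myo1d (0.984) for Stat6. For Arg1 they were Nsmce2 (0.980) and Erlec1 (0.966), and for Tslp Plekhg1 (0.980) and Nqo1 (0.966). For Retnla they were Dennd2d (0.976) and Zfp354a (0.965), which dropped to 0.888 and 0.860 without C/+ 3. Those of Il13ra1 dropped to 0.866 (Pde7b) and 0.910 (Rassf3) without WT 3. The other named genes kept an r of at least 0.927 when the library farthest from the member's median was left out. Between 0.12% and 1.21% of the compared genes had an r above 0.9 with a given member.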

How the data were processed

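The deposited table holds whole-number read counts per gene for 43432 mouse Ensembl genes in 8 libraries; the authors made them from stranded mRNA libraries of column-purified total RNA, per the labels. The submitters' processing notes name STAR 2.4.2a, DESeq2 and the build GRCh38, a human build, while the identifiers are of mouse; for the counting tool and its strand setting, nothing is given in the sources used here. Symbols and positions came from GENCODE M21 on GRCm38 (42462 identifiers named, 970 not), and promoters from RefSeq on GRCm38.p6.

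Genes were filtered with filterByExpr by group, libraries scaled by TMM, and 1 quasi-likelihood model with a mean per group fitted to all 8 libraries (edgeR 4.0.16, R 4.3.3), with two-sided F tests and Benjamini-Hochberg adjustment over 14906 genes. A gene was called at an adjusted p under 0.05. RPKM used the merged exon length, and correlations used log2 CPM with a prior count of 2. The labels do not say whether the libraries of a group came from separate mice. By the sex read from counts, WT and C/+ each held female and male libraries, so neither group came wholly from the same mouse. For the C/C libraries and for libraries of the same sex within a group this is not known. The p-values reflect only how these samples vary, which may be partly technical. No 2 libraries of the same group agreed within sampling noise. The pipeline was tested on simulated data. Counts of 17057216 to 52319957 per library leave counting error small above a few CPM.

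The members and lists were chosen with earlier results of these data known. All members are named; from each list, called genes (up to 4 per comparison by mean CPM), or else up to 2 tested genes with the highest mean; and per tested member the 2 most correlated genes whose mean reached 1 CPM, of which 1 for Il4ra is not reported here. List genes at or near 0 counts, and unchanged signalling genes named without values, were named after their values were seen. Alternatives were the Wald test of DESeq2 1.42.0, its size factors within edgeR, testing unfiltered genes or those reaching 1 CPM in 2 libraries, fitting only the groups compared, blocking on replicate number, adding sex as a covariate and dropping each library; the female libraries alone were added after seeing the data.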

Additional observations from a re-analysis of the deposited data

How the results depend on the processing

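Over the alternatives the tested members gave 300 values that kept both direction and call, 12 that gained a call, 4 that lost one and 15 that turned direction. For Il13ra1 the turned log2 fold changes were 0.022 in C/+ against WT in the female libraries and, in C/C against C/+, 0.028 with the replicate block, with -0.065 to 0.016 when a library was left out. Retnla ranged over -0.095 to 1.32 in C/+ against WT, -1.12 to 0.17 in C/C against C/+ and -0.16 to 0.52 in C/C against WT when a library was left out, and in the last it was -0.62 with sex as a covariate and -0.53 in the female libraries. Arg1 in C/C against C/+ was 0.023 with the block and -0.34 to 0.077 when a library was left out, and Il33 in C/C against WT was -0.13 with sex and -0.15 in the female libraries. The cause was not tested.

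Members called were 2 without the filter (Retnla, adjusted p = 0.00997, and Arg1, 0.028) and 2 with sex (Il33 and Stat6) in C/+ against WT. In C/C against C/+ they were 2 with DESeq2 (Il33, adjusted p = 0.0215, and Il4ra), 2 without the filter (Il33, 0.00337, and Retnla, 0.0477), 1 with the filter of 1 CPM (Il4ra) and 1 with sex (Il33), and 0 to 2 when a library was left out. In C/C against WT they were 0 in the female libraries and 0 to 1 when a library was left out. Over all genes, C/+ against WT called 585, against 1227 with DESeq2, 1299 without the filter, 356 in the compared groups alone, 1700 with sex, 58 in the female libraries and 103 to 729 without single libraries. C/C against C/+ called 1056, against 1614 without the filter and 185 to 1308 without single libraries. C/C against WT called 444, against 1410 with DESeq2, 1456 without the filter, 1348 with sex and 30 to 782 without single libraries. With the replicate block C/C against WT called 176 genes and kept Il4ra (-0.64, adjusted p = 0.0447, edgeR), and it changed no other member's call. Deviations of same-numbered libraries from their group means correlated at r from -0.21 to 0.09. Each mean was of only 3 or 2 libraries, so this check cannot tell whether the numbers pair them. Fits whose filter dropped Tslp gave no value for it. Of the list genes, the calls of Arg2, Cish, Irs1 against WT, Nos2 against WT and Slc26a4 were not kept under the block, and the calls over all lists were 3, 7 and 2 in C/C against WT, C/C against C/+ and C/+ against WT. Depth limits Il25, Tslp, Ccl17 and Alox15, whose counts did not pass 12 in any library.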
